A study of Homo sapiens with 4 samples.

Results

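RNA that came down with an antibody to TIA1 was examined for 10 small noncoding RNAs, which are 10 of the 22271 gene symbols on the array. They are a chosen list of RNAs made by RNA polymerase III (RN7SK, RMRP, RPPH1, RN7SL1, RNU6ATAC, VTRNA1-2 and VTRNA1-3) and the small nuclear RNAs of the minor spliceosome (RNU4ATAC, RNU11 and RNU12 besides RNU6ATAC). Members were found as listed RNAs to which the identifier of a noncontrol probe mapped, and every listed RNA was found. All 10 had 1 probe, printed as 1 spot per array, and all 10 passed the detection filter. RNU11 and VTRNA1-2 passed it only through the total RNA arrays, since neither was well above background on TIA1 RIP replicate 2. The signal therefore rests on a single spot per RNA and array.

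All samples came from KYSE180, an established cell line of esophageal squamous cell carcinoma (ESCC), with no treatment or genetic change named in the labels. TIA1 RIP stands for ribonucleoprotein immunoprecipitation, in which beads carrying a rabbit anti-TIA1 antibody were incubated with a cytoplasmic lysate and the bound RNA was recovered (2 arrays). The other group was total RNA described as input (2 arrays), and the sources used here do not state whether it came from the cytoplasmic lysate or from whole cells. RNA from a control IgG immunoprecipitation was not analysed here, so that RNA held by TIA1 and RNA that stuck to the beads cannot be told apart.

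TIA1 is an RNA-binding protein that prefers U-rich stretches and shuttles between nucleus and cytoplasm, where it takes part in translational silencing and in the assembly of stress granules. The RNAs described here are not messengers and work as the RNA cores of stable particles. 7SK RNA, RNase P RNA, RNase MRP RNA and the minor spliceosome snRNAs act mainly in the nucleus or nucleolus, whereas the signal recognition particle RNA and the vault RNAs act mainly in the cytoplasm. RNA polymerase III ends its transcripts at a run of T in the nontemplate strand, and most of the mature RNAs carry no poly(A) tail. U4atac, U11 and U12 snRNAs are made by RNA polymerase II, and U6atac snRNA by RNA polymerase III.

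The sequences are shown because T-rich stretches are both the terminator of RNA polymerase III and the kind of sequence that TIA1 prefers once read as U. They are GENCODE transcripts read from GRCh37, given 5′ to 3′ on the transcript strand, and the capitals mark runs of 4 or more T.
RNU4ATAC: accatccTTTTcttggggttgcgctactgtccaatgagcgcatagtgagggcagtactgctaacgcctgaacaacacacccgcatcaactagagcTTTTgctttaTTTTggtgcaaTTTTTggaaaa
RNU6ATAC: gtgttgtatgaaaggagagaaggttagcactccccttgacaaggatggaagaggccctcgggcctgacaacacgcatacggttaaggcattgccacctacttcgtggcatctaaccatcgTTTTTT
VTRNA1-2: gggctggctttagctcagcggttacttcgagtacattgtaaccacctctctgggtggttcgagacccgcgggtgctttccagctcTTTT
VTRNA1-3: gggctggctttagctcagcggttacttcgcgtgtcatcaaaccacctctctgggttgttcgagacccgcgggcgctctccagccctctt
The last 30 bases of RN7SK read ggcgctgcatgtggcagtctgcctttcttt and hold no run of 4 T.

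RNU4ATAC lies on the plus strand of chromosome 2 (chr2:122288457-122288583, 127 bases), within an intron of CLASP1 on the opposite strand and of the antisense transcript CLASP1-AS1 on the same strand. RNU6ATAC lies on the minus strand of chromosome 9 (chr9:137029561-137029686, 126 bases). VTRNA1-2 (chr5:140098510-140098598) and VTRNA1-3 (chr5:140105743-140105831) are both 89 bases long on the plus strand, within an intron of an unnamed long noncoding RNA, and are identical at 77 of 89 positions (86.5%). RN7SK (chr6:52860418-52860748, plus strand, 331 bases) and RMRP (chr9:35657751-35658014, minus strand, 264 bases) overlapped no other annotated gene. RPPH1, RN7SL1, RNU11 and RNU12 are named only. The probes' own positions within these RNAs are not given in the sources used here. RN7SL1, RN7SK and U6atac have many near-identical copies in the genome, whose signal cannot be told apart from theirs.

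Of the 6 RNAs with a sequence, 3 held the motif TTTT (RNU4ATAC, RNU6ATAC and VTRNA1-2) and 2 held TTTTT (RNU4ATAC and RNU6ATAC), searched on the transcript strand because the RNA is read as a single strand, so that every TTTTT is also a TTTT. RNU4ATAC held 4 separate runs and had a T content of 29.9%, and its longest run was 5 bases. The same length at the 3′ end of protein-coding transcripts held TTTT in 55.3% of windows for 127 bases, 55.2% for 126 bases and 47.2% for 89 bases. For the lengths of RMRP and RN7SK, which lack it, the shares were 70.2% and 74.5%. TTTTT was in 28.4% of windows of 127 bases and 28.2% of those of 126 bases. In the last 30 bases, the motif was in 3 of the 6 RNAs and in 20.6% of the 89215 windows of protein-coding transcripts. The RNA with the lowest ratio and the one with the ratio nearest 0, described next, are the pair with TTTTT.

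The arrays differed in brightness before any scaling. The 75th percentile of the processed signal was 1514 and 1271 on TIA1 RIP replicates 1 and 2 and 714.2 and 69.89 for the total RNA pair. The number of genes detected was 12616, 12635, 12471 and 9492 in the same order, so total RNA replicate 2 stood apart. All 6 squamous epithelial markers (KRT5, KRT14, KRT6A, TP63, SFN and DSG3) were detected on the 4 arrays, and of markers of other cell types PTPRC, COL1A1 and CDH5 were detected on 3 arrays, DCN on 1, and CD3E, COL1A2 and PECAM1 on none. The part of those detected in the results was not tested. Values below are log2 processed signals minus the 75th percentile of the array, unless called processed signals, and a log2 ratio is the mean of TIA1 RIP minus the mean of total RNA. The arrays were each labelled from the same mass of RNA, so a scaled value is relative to the other labelled RNA of its array. Fewer copies per cell and fewer cells contributing RNA cannot be told apart. Control transcripts added before labelling still gave unlike signals in the 2 groups, as described below.

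All 10 RNAs were lower in both TIA1 RIP arrays than in both total RNA arrays on this scale. The same held for 2786 of the 12822 genes tested, which is 21.7%. Among the members detected on all 4 arrays it held for 8 of 8, beside 27.3% of the 9137 genes so detected. The 10 log2 ratios ran from -6.99 to -1.83 with a median of -4.34, beside a median of -0.03 over all genes. No RNA passed the adjusted threshold of 0.05 in limma (0 of 10), nor did any gene (0% lower, lowest adjusted p = 0.592). The median of the members was -5.88 without total RNA replicate 1 and -3.08 without total RNA replicate 2, beside -0.26 and 0.07 over all genes. With all 4 arrays and an unadjusted limma p under 0.05, 9 of the 10 were lower, beside 506 of the genes (3.95%). None of the 10 was higher, beside 146 of the genes (1.14%). Without RNU11 and VTRNA1-2, which passed the filter through total RNA alone, 7 of 8 were lower, beside 4.09% of the 9137 genes detected on all 4 arrays. A pair of arrays per group cannot give an exact two-sided permutation p below 0.333, and the spread between arrays may be technical, since the labels do not say whether replicates are separate cultures.

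**Figure D1:**
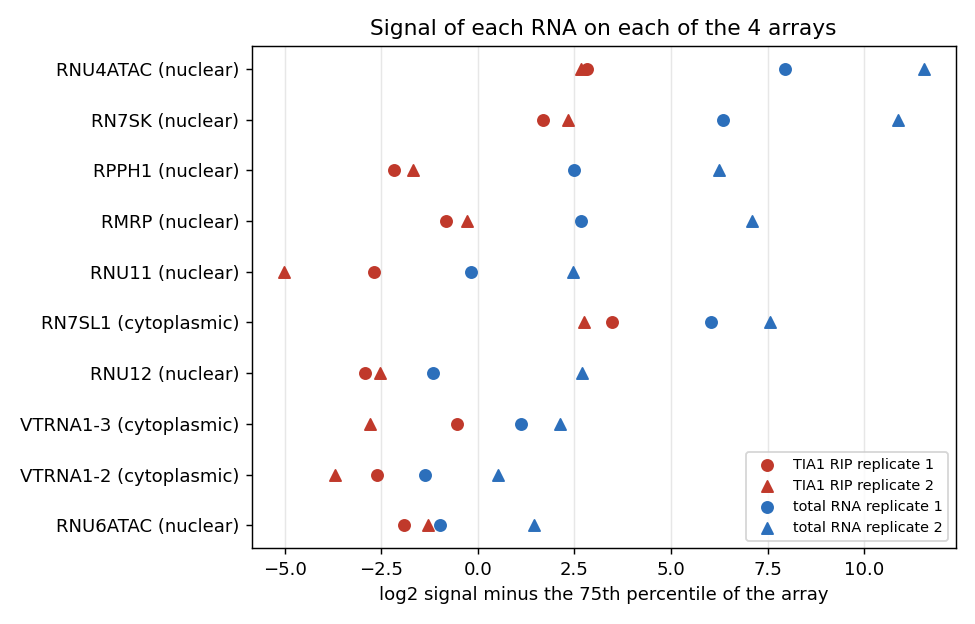
Each point is the log2 processed signal of 1 RNA on 1 array minus the 75th percentile of that array (horizontal axis), for TIA1 RIP (red) and total RNA (blue), replicate 1 as circles and replicate 2 as triangles. In every row both red points lie to the left of both blue points, and total RNA replicate 2 lies to the right of total RNA replicate 1. Without scaling, RNU6ATAC lies the other way round, and RN7SL1, VTRNA1-2 and VTRNA1-3 overlap between the groups. Total RNA replicate 2 is then dimmer than replicate 1 for RNU11, RNU6ATAC, RN7SL1, VTRNA1-2 and VTRNA1-3.

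7SK RNA holds the elongation kinase P-TEFb in an inactive particle. The processed signal of RN7SK was 4892 and 6447 on TIA1 RIP replicates 1 and 2, against 58200 and 130500 on total RNA replicates 1 and 2. The groups were apart even before scaling, although the TIA1 RIP arrays were the brighter ones. Scaled, RN7SK stood at 1.69 and 2.34 in TIA1 RIP and at 6.35 and 10.87 in total RNA. The log2 ratio was -6.59 (SE 1.44, n = 2 and 2, adjusted p = 0.592 from limma), or 96.4-fold lower on the means, with 0.0234% of genes lower still. The total RNA replicates were 4.52 apart and the TIA1 RIP replicates 0.65 apart.

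RPPH1 is the RNA of RNase P, which trims the 5′ end of pre-tRNA. Its processed signal was 335.7 and 400.3 in TIA1 RIP and 3989 and 5232 in total RNA. The replicates of each group lay close together compared with the distance between the groups on these unscaled signals. Scaled values were -2.17 and -1.67 against 2.48 and 6.23, with a log2 ratio of -6.27 (SE 1.26, adjusted p = 0.592 from limma). RMRP, the RNA of the related RNase MRP that acts on pre-ribosomal RNA, had processed signals of 855.2 and 1048 in TIA1 RIP and of 4579 and 9476 in total RNA. Its scaled values were -0.82 and -0.28 against 2.68 and 7.08, and its log2 ratio was -5.43 (SE 1.41, adjusted p = 0.674 from limma). RPPH1 and RMRP thus stood 77.4-fold and 43.2-fold lower in TIA1 RIP on the means, with no overlap between the groups.

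The 4 minor spliceosome snRNAs spanned the whole range of the members. RNU4ATAC, which pairs with U6atac snRNA in the minor tri-snRNP, had the lowest log2 ratio of all 12822 genes, -6.99 (SE 1.22, unadjusted p = 0.000717, adjusted p = 0.592 from limma), or 127-fold on the means. Its processed signal was 10790 and 8088 in TIA1 RIP and 175700 and 206900 in total RNA. Its scaled values were 2.83 and 2.67 against 7.94 and 11.53. The TIA1 RIP replicates of RNU4ATAC were closer to each other than those of any other member (SD 0.12), and its total RNA replicates were further apart (SD 2.54).

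RNU6ATAC, which takes the place of U6 snRNA in the active site of the minor spliceosome, had the log2 ratio nearest 0, -1.83 (SE 1.01, unadjusted p = 0.114, adjusted p = 0.769 from limma). Its scaled values were -1.91 and -1.28 in TIA1 RIP and -0.98 and 1.46 in total RNA, so that TIA1 RIP replicate 2 and total RNA replicate 1 were only 0.30 apart. The unscaled order was the opposite, with processed signals of 403.7 and 524.5 in TIA1 RIP and 362 and 192.3 in total RNA. Relative to GAPDH, the reference mRNA of the study, the log2 ratio was 0.23, and it was 0.80 without scaling and 2.99 relative to the E1A spike-ins, which are control transcripts added to the RNA before labelling, so its direction depended on the scaling. The E1A spots had a mean log2 signal of 12.35 and 12.27 on the TIA1 RIP arrays and of 14.35 and 14.64 on the total RNA arrays. The log2 ratio of RNU4ATAC minus that of RNU6ATAC lay between -6.12 and -4.18 in the 4 pairs of arrays, a difference that subtracting a constant from each array cannot alter.

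U11 and U12 snRNAs recognise the 5′ splice site and the branch point of minor introns. RNU11 had processed signals of 234.1 and 39.23 in TIA1 RIP and of 627 and 387.6 in total RNA. Its log2 ratio was -5.0 (SE 1.21, adjusted p = 0.603 from limma). The spot on TIA1 RIP replicate 2 was not well above background, and with TIA1 RIP replicate 1 alone the log2 ratio was -2.51 and -5.16 against total RNA replicates 1 and 2. RNU12 had processed signals of 199.3 and 219.9 in TIA1 RIP and of 319.7 and 453.2 in total RNA. Its log2 ratio was -3.50 (SE 1.28, adjusted p = 0.769 from limma). Both were lower in TIA1 RIP on unscaled signals too, without overlap, but RNU12 was 2.97-fold lower against total RNA replicate 1 and 43.0-fold lower against replicate 2.

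Among the cytoplasmic RNAs, RN7SL1 is the RNA of the signal recognition particle, which brings ribosomes to the endoplasmic reticulum. Its processed signal was 16740 and 8559 in TIA1 RIP and 46630 and 13300 in total RNA, which overlapped before scaling. Scaled, it stood at 3.47 and 2.75 against 6.03 and 7.57, with a log2 ratio of -3.69 (SE 0.88, adjusted p = 0.599 from limma). The total RNA replicates of RN7SL1 differed by 1.54, less than those of any nuclear member.

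The vault RNAs are parts of the vault, a large cytoplasmic particle of which the function is not settled. VTRNA1-2 had processed signals of 247.7 and 98.17 in TIA1 RIP and of 276.6 and 100.4 in total RNA, and the replicate 2 spot of TIA1 RIP was not well above background. VTRNA1-3 had processed signals of 1043 and 184.3 in TIA1 RIP and of 1555 and 302.8 in total RNA. Unscaled signals of both vault RNAs overlapped between the groups, and in both groups the replicate 1 signal exceeded the replicate 2 signal. Scaled, the log2 ratios were -2.73 (SE 0.96, adjusted p = 0.769) for VTRNA1-2 and -3.28 (SE 1.00, adjusted p = 0.769, both from limma) for VTRNA1-3. Relative to the E1A spike-ins these ratios were 2.09 and 1.54, and RN7SL1 and RNU12 also turned positive there, at 1.13 and 1.32. On that scale the median of all genes moved to 4.79, and all 10 RNAs lay below it.

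Before scaling, TIA1 RIP lay below total RNA without overlap for 6 of the 7 nuclear RNAs, beside 194 of the 12822 genes (1.51%). It lay above for the other, RNU6ATAC, as for 75.9% of genes, and all 3 cytoplasmic RNAs overlapped between the groups. Of the 6, RNU11 had a spot on TIA1 RIP replicate 2 that was not well above background.

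TIA1 RIP was also set against each total RNA array on its own. All 10 RNAs lay below the median of all genes in every one of the 4 pairs of arrays, as did 2733 of the 12822 genes (21.3%). The 10 include RNU11 and VTRNA1-2, which passed the filter through total RNA alone, the group in which they are high. The median of the members was -2.53 for TIA1 RIP replicate 1 against total RNA replicate 1 and -3.59 for TIA1 RIP replicate 2 against the same array. Against total RNA replicate 2 it was -5.39 and -6.29. The 2 total RNA arrays therefore gave the same side and different sizes.

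RN7SK was 20.1-fold lower against total RNA replicate 1 and 461-fold lower against replicate 2. RNU4ATAC was 36.5-fold and 440-fold lower, and RPPH1 21.1-fold and 283-fold lower. Counted from the lowest of the 12822 genes, these RNAs ranked 23 and 1, 9 and 3, and 21 and 9. RMRP took ranks 90 and 16. RNU6ATAC was 1.53-fold lower against replicate 1 and 8.29-fold lower against replicate 2, at ranks 2967 and 825. The sizes against replicate 2 include its low 75th percentile, 69.89 against 714.2 on replicate 1, which shifts every gene alike. In unscaled signal, replicate 2 over replicate 1 was only 2.24 for RN7SK, 1.18 for RNU4ATAC and 1.31 for RPPH1. It was 0.531 for RNU6ATAC, so its larger size against replicate 2 came from the scaling.

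**Figure D2:**
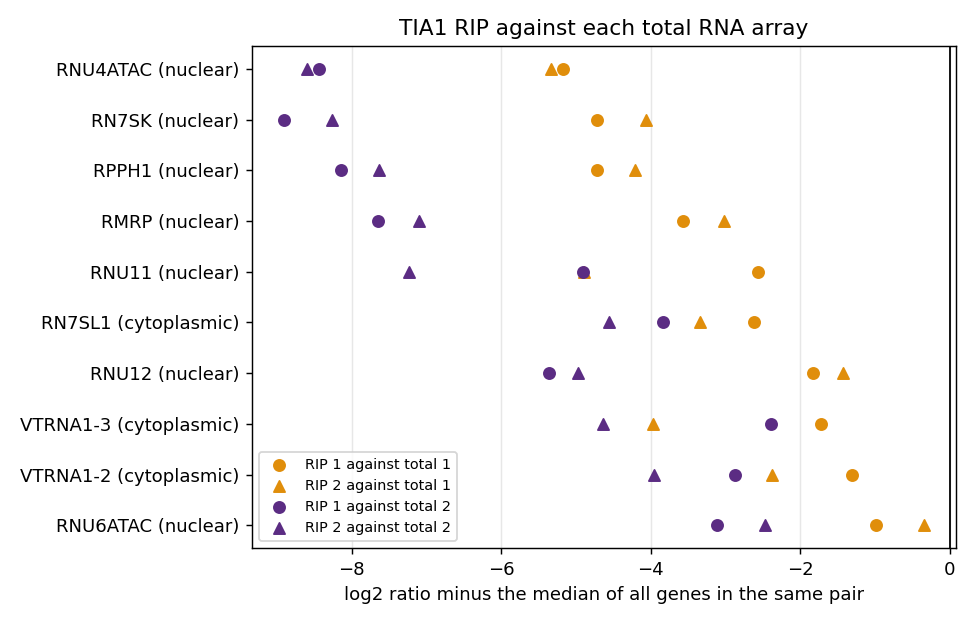
Each point is the log2 ratio of 1 TIA1 RIP array over 1 total RNA array for 1 RNA, minus the median of all genes in that pair (horizontal axis); orange points use total RNA replicate 1 and purple points total RNA replicate 2, and circles and triangles are TIA1 RIP replicates 1 and 2. All points lie left of 0, from -8.91 for RN7SK to -0.35 for RNU6ATAC. For nuclear and cytoplasmic RNAs alike the purple points lie left of the orange ones, apart from RNU11 and VTRNA1-3. In RNU11 1 of each nearly coincide, and in VTRNA1-3 the colours interleave.

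The study's RIP used cytoplasmic lysates, so the RNAs were also compared by where they act. The 7 nuclear RNAs had a mean log2 ratio of -5.09 (median -5.43, range -6.99 to -1.83) and the 3 cytoplasmic RNAs one of -3.23 (median -3.28, range -3.69 to -2.73). The ranges overlapped, because RNU6ATAC and RNU12 lay within or above that of the cytoplasmic RNAs. The nuclear mean was lower by 1.85 on the log2 scale (3.61-fold). With only probes detected on all 4 arrays, which leaves out RNU11 and VTRNA1-2, the nuclear minus cytoplasmic difference was -1.62. No test was made, since RNAs are not replicates.

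The difference between nuclear and cytoplasmic RNAs varied with the arrays used. It was -1.48 for TIA1 RIP replicate 1 against total RNA replicate 1 and -0.10 for TIA1 RIP replicate 2 against the same array. Against total RNA replicate 2 it was -3.61 and -2.22. It had the same sign in all 4 pairs, but in 1 pair the nuclear and cytoplasmic means nearly coincided (-3.27 and -3.17). Over both TIA1 RIP arrays, it was -0.79 against total RNA replicate 1 and -2.92 against replicate 2. The contrast of RN7SK with RN7SL1, a nuclear and a cytoplasmic RNA of RNA polymerase III, followed this course, with differences of -2.09 and -0.73 against replicate 1 and -5.07 and -3.70 against replicate 2.

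Grouped by polymerase, the 3 RNAs of RNA polymerase II had a mean log2 ratio of -5.16 and the 7 of RNA polymerase III one of -4.26. The ranges overlapped (-6.99 to -3.5 and -6.59 to -1.83). All 3 RNAs of RNA polymerase II are nuclear and all 3 cytoplasmic RNAs are made by RNA polymerase III, so location and polymerase partly coincide. The nuclear RNAs of RNA polymerase III were RN7SK (-6.59), RPPH1 (-6.27), RMRP (-5.43) and RNU6ATAC (-1.83), beside -3.69 to -2.73 for the cytoplasmic ones. How much of either difference goes with location or with polymerase was not tested.

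The total RNA replicates differed widely over all genes, with an SD of 2 for replicate 2 minus 1 and a correlation of 0.733. For the TIA1 RIP replicates these values were 0.896 and 0.931. Total RNA replicate 2 exceeded replicate 1 by 3.60 on average for the nuclear RNAs and by 1.48 for the cytoplasmic RNAs, beside a median of 0.35 over all genes. The differences of RN7SK, RMRP and RNU12 (4.52, 4.40 and 3.86) exceeded those of 99.3%, 99.1% and 98.1% of genes. For RPPH1, RNU4ATAC and RNU11 the shares were 97.7%, 97.3% and 90.5%. They were lower for RNU6ATAC (87.6%), VTRNA1-2 (78.6%), RN7SL1 (72%) and VTRNA1-3 (61.9%). In unscaled signal, RN7SK was 2.24 times, RMRP 2.07 times and RNU12 1.42 times as bright on replicate 2 as on replicate 1, whereas RNU11 (0.618), RNU6ATAC (0.531), VTRNA1-2 (0.363), RN7SL1 (0.285) and VTRNA1-3 (0.195) were dimmer. On the dimmer total RNA array, therefore, 5 of the 7 nuclear RNAs were brighter and the other 2 dimmer, as were all 3 cytoplasmic ones. Between the TIA1 RIP replicates the median difference over all genes was 0.0267, and the members ran from -2.32 for RNU11 to 0.65 for RN7SK.

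**Figure D3:**
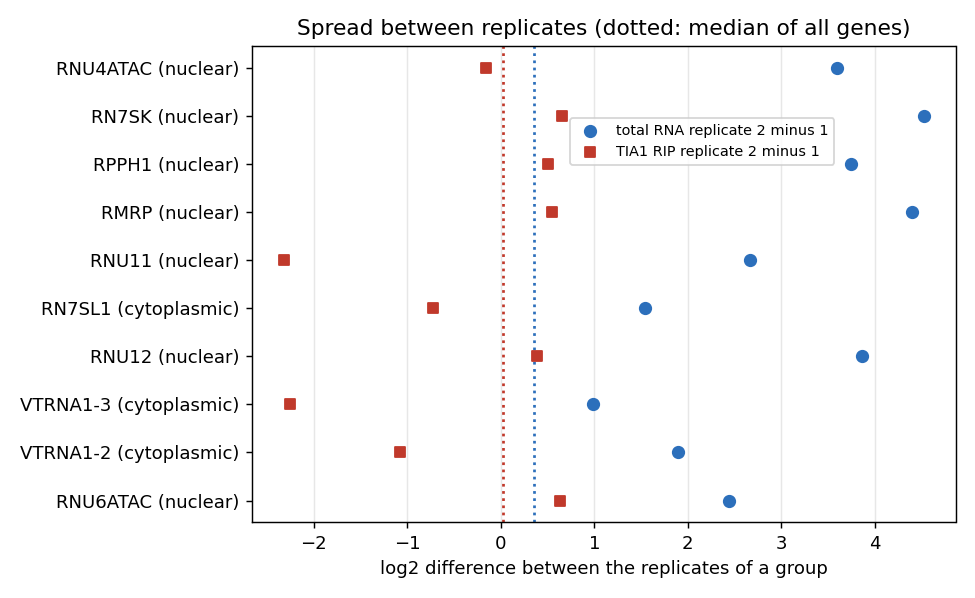
Differences between replicate 2 and replicate 1 of each group (horizontal axis, log2 scale) for total RNA (blue circles) and TIA1 RIP (red squares), with dotted lines at the median of all genes, 0.35 and 0.0267. Every blue circle lies right of its dotted line, from 0.99 for VTRNA1-3 to 4.52 for RN7SK, and RNU11 and VTRNA1-3 have the lowest red squares (-2.32 and -2.25).

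Small nucleolar and Cajal body RNAs had log2 ratios in the same range. The 91 tested H/ACA box and Cajal body RNAs reside in the nucleus, and many but not all are guides for pseudouridylation. They had a median of -3.82. Of these, 50 were not detected on all 4 arrays, and a gene that passed the filter only through the group in which it is high had to differ. The 41 detected on all 4 arrays had a median of -2.99, and for 37 of them both TIA1 RIP arrays lay below both total RNA arrays, beside 27.3% of the 9137 genes so detected. The highest and lowest of those detected on all arrays were SNORA71B (-0.61, SE 1.06, adjusted p = 0.889 from limma) and SCARNA18 (-6.11, SE 1.43, adjusted p = 0.592). The 58 tested C/D box snoRNAs, many but not all of them guides for ribose methylation, were centred on -3.30. SNORD36A stood at -0.59 and SNORD3B-1 at -5.94. Of the 58, 37 were not detected on all 4 arrays, and the 21 that were had a median of -1.76, with 17 of them lower without overlap.

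Messenger RNAs of the replication-dependent histones end in a stem-loop in place of a poly(A) tail and are exported to the cytoplasm. Their 63 tested genes had a median log2 ratio of -3.39, from -5.91 for H2AC11 to 0.20 for H3C1, and 59 of the 61 that were detected on all 4 arrays lay lower in TIA1 RIP without overlap, again beside 27.3% of genes. This median is near that of the cytoplasmic RNAs, -3.28. The 5 tested long noncoding RNAs, several of them nuclear and polyadenylated, had a median of 0.26 and overlapped between groups. Their median differed in sign between the total RNA arrays, at -1.10 against replicate 1 and 1.01 against replicate 2. NEAT1, the scaffold of paraspeckles, reached 1.47 (SE 1.61, adjusted p = 0.825 from limma), GAS5 one of -0.19, and MALAT1, an RNA of nuclear speckles without a classical tail, one of -0.04. The labels name a labelling kit that starts copies from an oligo(dT) primer, so how RNAs without a tail entered the labelled material is not given here, and its part in these ratios was not tested.

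**Figure D4:**
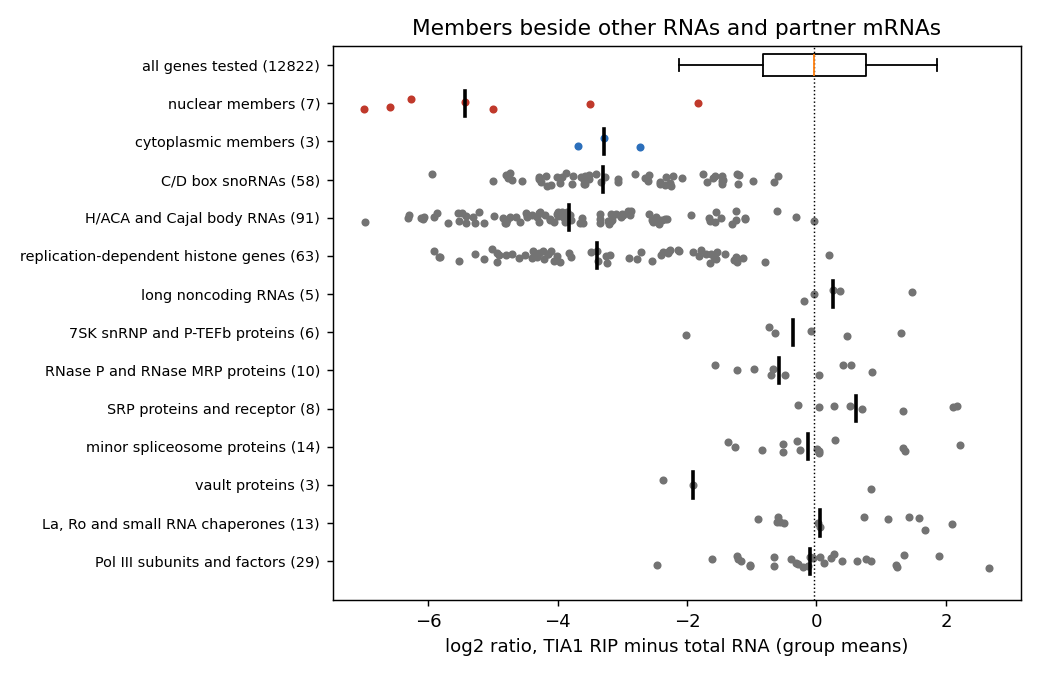
Log2 ratio of TIA1 RIP over total RNA on the group means (horizontal axis) for the nuclear and cytoplasmic RNAs described here, other RNA groups and mRNAs of partner proteins; each point is a gene, black bars are medians, numbers in brackets count the tested genes, and the box gives the quartiles of all genes with whiskers at the 5th and 95th percentiles. Small RNAs and histone genes lie mostly below -2, whereas most partner mRNAs lie within the whiskers around the dotted median of -0.03.

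Proteins of these particles, small RNA chaperones, and RNA polymerase III subunits and factors have mRNAs that carry a tail. Together 83 such mRNAs, called partner mRNAs, were tested. None passed the adjusted threshold, and 2 were lower and 0 higher at an unadjusted p under 0.05, beside 3.95% and 1.14% of all genes. The 6 tested mRNAs of 7SK particle and P-TEFb proteins centred on a log2 ratio of -0.36, with a range of -2.02 to 1.30. Of those detected on all 4 arrays, HEXIM2, an inhibitor of P-TEFb, was lowest (-2.02, SE 0.98, adjusted p = 0.769 from limma) and cyclin T1 CCNT1 highest (0.47). The 10 mRNAs of RNase P and MRP proteins had a median of -0.58, from POP7 (-1.56) to RPP40 (0.86). The 14 of minor spliceosome proteins had a median of -0.13 and a range of -1.37 to 2.22, and of those detected on all 4 arrays SCNM1 was lowest (-1.37) and CENATAC highest (0.28).

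The 8 mRNAs of signal recognition particle proteins and receptor had a median log2 ratio of 0.61, from SRP14 (-0.29) to SRP9 (2.17, SE 0.98, adjusted p = 0.769 from limma), the pair of proteins that bind the Alu domain of RN7SL1. TIA1 RIP lay above total RNA without overlap for 3 of the 8, beside 19.6% of all genes, and below for 1, beside 21.7%. The 3 vault protein mRNAs had the lowest median of the partner lists, -1.91, with a range of -2.37 to 0.84, the major vault protein MVP at -1.91 (SE 0.83, adjusted p = 0.769 from limma) and TEP1 at -2.37 (SE 0.78, unadjusted p = 0.019, adjusted p = 0.769). TEP1 was 1 of the 2 partner mRNAs lower at the unadjusted threshold. The 13 mRNAs of La, Ro and other small RNA chaperones or related proteins had a median of 0.06 and a range of -0.91 to 2.10. Some of these proteins, but not all, bind the 3′ oligo(U) of new RNA polymerase III transcripts or the RNAs themselves. Of the mRNAs detected on all 4 arrays, LARP1 was lowest (-0.91) and LSM8 highest (1.67). The 29 mRNAs of RNA polymerase III subunits and factors had a median of -0.10 and a range of -2.47 to 2.67. Of those detected on all 4 arrays, SNAPC4, a subunit of the factor that starts snRNA genes, was lowest (-2.47, SE 0.85, unadjusted p = 0.0232, adjusted p = 0.769 from limma) and POLR1D highest (1.23).

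GAPDH, the reference mRNA of the study, had scaled values of 6.49 and 6.69 in TIA1 RIP and of 7.67 and 9.63 in total RNA, a log2 ratio of -2.06 (SE 0.92, adjusted p = 0.769 from limma). Relative to it the median of the 10 RNAs was -2.28 and that of all genes 2.03. The members lay below the median of all genes by the same 4.32 on either scale, and 9 of the 10 kept a ratio below 0.

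The profile of RNU4ATAC over the 4 arrays, each gene taken as deviations from its own mean, was closest to that of SNORA27 (Euclidean distance 0.51), an H/ACA box RNA, then HAPLN2 (0.83), a matrix protein gene, and RPPH1 (0.86). SNORA27 was not detected on all 4 arrays, and its scaled values in TIA1 RIP were only -4.56 and -4.84. Over only 4 arrays such likeness is a description.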

How the data were processed

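The data are 4 one-colour arrays, 2 of TIA1 RIP and 2 of total RNA. The authors scanned them with Agilent Feature Extraction 10.7.1.1 and deposited, per spot, a processed intensity (background-subtracted and detrended, linear scale, not normalized between arrays), the raw median intensity and its background. Besides these, the deposited columns include other values, namely flags of 0 and 1. The authors went on in GeneSpring, whose settings are not given in the sources used here.

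Uneven or deviant spots (299 to 382 of 58717 per array) were left out, and no spot was saturated. The processed signal was converted to log2, the 75th percentile of the array was subtracted, and spots of a probe were averaged. Probes whose share of spots well above background was at least 0.5 on both arrays of a group were kept (20099 of 50599), and the kept probes of a gene averaged. Symbols came from RefSeq accessions (names only) or GENCODE on GRCh37, the build of the array design, for 32291 probes. limma 3.58.1 in R 4.3.3 (lmFit, eBayes, Benjamini-Hochberg, threshold 0.05) was fitted over 12822 genes. The fit was tried on simulated data with much less spread between replicates than these arrays have. That trial does not show how the fit performs at the spread of these data. Precision is limited by the 4 arrays. Python 3.11.15 with pandas 2.3.3 and matplotlib 3.10.9 did the rest.

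The members and lists were chosen with earlier results of these data known. Named genes are every member, GAPDH, from each list the highest and lowest log2 ratio among genes detected on all 4 arrays, and the 3 genes with the profile nearest to that of RNU4ATAC, the member of highest mean log2 signal. A marker gene is not reported here. MALAT1 and the genes named in the closing observations were added after their values were seen. The listed alternatives changed the background, scaling, filter, spots, probes, floor, replicate number as a block, and each array left out. A pair of scalings was added after seeing the data.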

Additional observations from a re-analysis of the deposited data

How the results depend on the processing

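Alternatives that shift all genes of an array alike (GAPDH, E1A, the other percentile, the median, no scaling) cannot move a member relative to the median of all genes, nor the nuclear minus cytoplasmic difference. Under the others, the members lay below that median, with a median relative to it of -5.62 (without total RNA replicate 1) to -3.02 (normexp background). Their own median, -4.34, moved to -2.28 relative to GAPDH, -1.71 without scaling and 0.48 relative to the E1A spike-ins, and ran from -5.88 (without total RNA replicate 1) to -3.08 (without total RNA replicate 2) with each array left out. RNU6ATAC turned positive relative to GAPDH (0.23), without scaling (0.80) and relative to E1A (2.99), and RN7SL1 (1.13), RNU12 (1.32), VTRNA1-2 (2.09) and VTRNA1-3 (1.54) relative to E1A. The nuclear minus cytoplasmic difference, -1.85, kept its sign under the others, from -2.92 to -0.79 with each array left out.

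With each array left out, 0 to 1830 genes were called higher and 0 to 1977 lower, 0 to 9 members lower, and 0 to 17 partner mRNAs higher and 0 to 5 lower. The upper ends came without total RNA replicate 1, when total RNA replicate 2 stands alone and is assumed to vary like the other group. Without TIA1 RIP replicate 1, 7 genes were lower. Relative to E1A, 8100 genes and 53 partner mRNAs were called higher. With the replicate number as a block, 56 genes were higher and 286 lower, and 8 members were called lower, all but RNU6ATAC and VTRNA1-2. Every member had the same SE within each of these fits, 2.04 relative to E1A and 0.89 with the block. Such calls do not measure the spread of each gene. The arrays share only a number as far as the labels say, and the deviations of same-numbered arrays correlated at 0.452 across genes, which are not independent. The slide as a block was not run, since all 4 arrays lie on 1 slide. RNU11 and VTRNA1-2 drop out when probes must be detected on every array. The causes of these shifts were not tested.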

Other observations

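Other small RNAs of RNA polymerase III stood at the same end of the ranking, the snaR RNAs, whose genes are near-identical copies that may share signal, so they are 1 observation rather than several. They were noticed after the values were seen. Of the 8 snaR genes tested, 7 had a log2 ratio under -5. SNAR-F stood at 3.36 and 0.26 in TIA1 RIP and at 7.81 and 9.50 in total RNA, a log2 ratio of -6.84 (SE 1.21, adjusted p = 0.592 from limma), the third lowest of all genes. SNAR-A3 stood at 5.37 and 2.42 against 9.26 and 11.68, a log2 ratio of -6.58. SNAR-I was the exception at -1.78 (SE 1.18). Unlike RN7SK, SNAR-F and SNAR-A3 were lower on TIA1 RIP replicate 2 than on replicate 1. VTRNA1-1 was detected on 1 array and VTRNA2-1 on none, so they gave no ratio.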
